A study of Mus musculus with 2 samples.

Results

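The rod phototransduction cascade was followed through 7 of the 32227 genes in the deposited gene table. The members were found by symbol: Gnat1, Gnb1 and Gngt1, which encode the alpha, beta and gamma subunits of rod transducin, Pde6a, Pde6b and Pde6g, which encode the catalytic and inhibitory subunits of rod phosphodiesterase 6, and Sag, which encodes rod arrestin. Single-nucleus RNA-seq (PIPseq, a 3′ kit that separates nuclei in particle-templated emulsion) profiled whole C57 BL/6J retinas at postnatal day 21. The series compared 1 Cre- control library, labelled WT for genotype, with 1 library from Tet tcKO animals, in which floxed Tet1, Tet2 and Tet3 were recombined in retinal progenitor cells by the Chx10-Cre-GFP transgene, to ask how loss of TET enzymes changes retinal cell identity. That transgene is known to act in a mosaic, which the study addressed by breeding animals with Cre on both parental sides. The Cre- controls were age-matched animals from Cre- breeders. Presence of the transgene and breeding line therefore cannot be told apart from loss of the Tet genes. Nuclei of 2 dissociation pools, each of 4 or more retinas, entered each library. The cell tables do not separate these pools, so each genotype counted as 1 sample, and no difference below was checked against replicates or tested.

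In a dark-adapted rod, cyclic GMP holds cation channels in the outer segment open. Photoactivated opsin exchanges GDP for GTP on transducin, the free alpha subunit relieves the gamma subunit's block of phosphodiesterase 6, cyclic GMP falls and the channels close. Arrestin then binds the phosphorylated opsin and ends its signalling. Cones run the same cascade largely with paralogous genes: Gnat2, Gnb3 and Gngt2 for transducin, Pde6c and Pde6h for the phosphodiesterase, and Arr3 for arrestin. This pairing does not mean that a gene named for rods, such as Sag, is absent from cones.

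Sequencing gave 11510585 UMIs over 7357 Cre- nuclei, where the median nucleus had 1107, and 16590747 UMIs over 6766 Tet tcKO nuclei, where it had 1836.5. The members took 0.677% of all UMIs in Cre- and 0.331% in Tet tcKO. The libraries shared 1 cell barcode, and mitochondrially encoded genes made up 5.47% and 1.76% of their UMIs. In Cre-, the authors annotated 5214 nuclei as rods and 265 as cones. In Tet tcKO they annotated 6 as rods and 3225 as cones, and no photoreceptor cluster held 50 or more nuclei in both libraries. Rods and cones were therefore pooled for comparisons between genotypes, giving 5479 Cre- and 3231 Tet tcKO nuclei. Levels are given as UMIs of a gene per 1000000 UMIs of the population (CPM), and bracketed ranges are 95% exact intervals that cover counting error only.

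Defining markers were checked against these labels. Nrl, the transcription factor that directs rod fate, measured 435 CPM (419 to 452) for Cre- rods, and 550 CPM (505 to 597) for Cre- nuclei annotated as cones. Gnat2, the cone transducin alpha subunit, stood at 84.2 CPM (77.3 to 91.5) and 88.2 CPM (71.0 to 108) in these classes, so neither gene set the Cre- nuclei named cones apart as cones. The cone arrestin Arr3 was slightly higher in the nuclei named cones, at 880 CPM (824 to 940) against 735 CPM (715 to 756). Both cone opsins were also higher there than in Cre- rods. Opn1sw, the short-wavelength opsin, stood at 112 CPM (92.9 to 135) against 72.4 CPM (66.1 to 79.3). Opn1mw, the medium-wavelength opsin, stood at 156 CPM (133 to 182) against 117 CPM (109 to 126). Tet tcKO cones held 221 CPM (211 to 232) of Nrl and 515 CPM (498 to 531) of Gnat2. Their opsin levels were 653 CPM (635 to 672) of Opn1sw and 208 CPM (198 to 219) of Opn1mw. Among photoreceptor clusters, cluster 32, with 568 Cre- nuclei annotated as rods, had 1 marker of retinal ganglion cells (RGCs) and 0 photoreceptor markers among its 10 leading genes. Most other photoreceptor clusters, such as 11, 44 and 55, also had 0 photoreceptor markers there. They passed because no marker of another class was found, which does not establish their identity. Without cluster 32, the median log2 ratio of the members in pooled rods and cones was -1.23, as it was with it.

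The members lie on separate chromosomes. On GRCm39, the build the labels name, Gnat1 (ENSMUSG00000034837) spans chromosome 9 from 107551673 to 107556911 on the minus strand, Gnb1 (ENSMUSG00000029064) chromosome 4 from 155566095 to 155644327, Gngt1 (ENSMUSG00000029663) chromosome 6 from 3989048 to 3997436, and Pde6b (ENSMUSG00000029491) chromosome 5 from 108536243 to 108580263, the last 3 on the plus strand. Pde6g (ENSMUSG00000025386) spans chromosome 11 from 120338431 to 120344326 on the minus strand, and Sag (ENSMUSG00000056055) chromosome 1 from 87731402 to 87772880 on the plus strand. Pde6a (ENSMUSG00000024575) is given by its identifier only. All are protein-coding genes, and none overlaps another gene on its own strand. Gnat1, Gnb1, Pde6a and Sag have annotated genes on the opposite strand, and reads from such a pair cannot be told apart where strand is not used. Of these, the gene table held Gm19582, opposite Sag, with 0 UMIs in both libraries.

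Sequence before the start site is shown for the 2 members that departed from the rest between genotypes, Gngt1 and Sag, and for Pde6b, which did not. The sequences are the 250 bases upstream of the RefSeq start, on the plus strand of GRCm38.p6, at chr6:3993758-3994007 for Gngt1, chr1:87803430-87803679 for Sag and chr5:108388123-108388372 for Pde6b. Capitals mark TAATCC, a core bound by the photoreceptor factor Crx, or its reverse complement GGATTA, and TGCTGA, an Nrl half-site, or TCAGCA.
Gngt1: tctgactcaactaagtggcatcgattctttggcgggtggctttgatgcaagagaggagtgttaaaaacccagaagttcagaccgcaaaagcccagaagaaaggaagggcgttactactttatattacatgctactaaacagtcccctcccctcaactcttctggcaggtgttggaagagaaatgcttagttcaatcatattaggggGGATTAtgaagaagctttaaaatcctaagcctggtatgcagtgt
Sag: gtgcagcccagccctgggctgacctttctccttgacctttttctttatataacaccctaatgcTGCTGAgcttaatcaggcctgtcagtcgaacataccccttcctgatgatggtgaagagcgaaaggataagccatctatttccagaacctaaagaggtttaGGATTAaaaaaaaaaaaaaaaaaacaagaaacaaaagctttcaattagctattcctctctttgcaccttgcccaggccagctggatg
Pde6b: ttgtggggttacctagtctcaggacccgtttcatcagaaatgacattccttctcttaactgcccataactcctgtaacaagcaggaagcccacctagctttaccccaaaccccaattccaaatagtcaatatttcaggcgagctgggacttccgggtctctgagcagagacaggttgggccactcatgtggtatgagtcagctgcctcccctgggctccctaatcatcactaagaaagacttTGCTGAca
Gngt1 held GGATTA from -44 to -39 relative to the start. Sag held GGATTA from -87 to -82 and TGCTGA from -187 to -182. Pde6b held TGCTGA from -8 to -3. Gnb1 held neither in its window, and the cone gene Gnat2 held GGATTA from -19 to -14. Searched on both strands from 250 bases before to 50 after the start, 7.06% of 32851 RefSeq windows held the Crx core and 19.5% the Nrl half-site. Windows for Gnat1, Pde6a and Pde6g were not in the table used. A match is a description of letters and not of binding.

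Over all nuclei, all 7 members stood lower in the Tet tcKO library. The median log2 ratio of Tet tcKO over Cre- was -1.54, against 0.15 for the 11158 genes that reached 10 CPM in either library. 5 of the 7 members were lower by 2-fold or more, beside 2.48% of all genes compared, and 0 of 7 were higher by that much, beside 3.18%. Gngt1 and Sag moved least. Of the others, Gnb1 was at 745 and 296 CPM (log2 -1.33), Pde6a at 659 and 190 CPM (-1.79), Pde6b at 1283 and 410 CPM (-1.65) and Pde6g at 383 and 125 CPM (-1.62). In whole tissue, fewer nuclei of a type and less RNA per nucleus cannot be told apart, and nuclei annotated as rods or cones were 74.5% of Cre- nuclei and 47.8% of Tet tcKO nuclei. Without 4 bipolar-annotated clusters that failed the marker check (described with the classes), these shares were 74.6% and 58.3%, the median log2 ratio was -1.42 and that of Gngt1 -0.24 instead of -0.40.

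The difference was also present in photoreceptors taken as 1 pool. Nearly all of these nuclei were annotated as rods in Cre- and as cones in Tet tcKO. A change of photoreceptor type and a change of level within a type cannot be told apart there. In pooled rods and cones the median log2 ratio of the members was -1.23, against 0.23 for all 11377 genes compared, and again 5 of 7 were lower by 2-fold or more, beside 2.58% of genes. Gnat1, Gnb1, Pde6a, Pde6b and Pde6g formed this group, while Gngt1 did not differ beyond its counting interval and Sag was modestly lower.

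**Figure D1:**
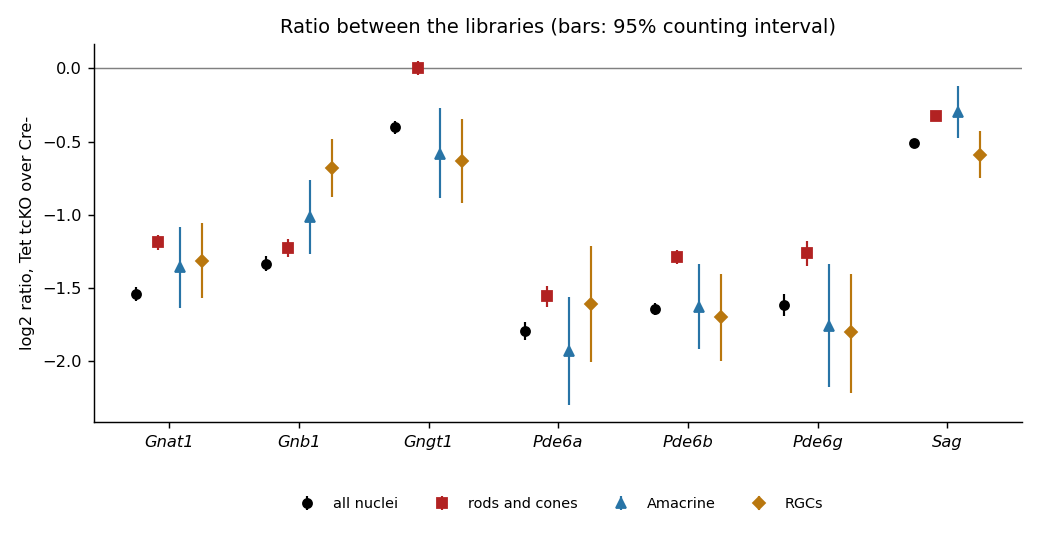
Log2 ratio of Tet tcKO over Cre- for each member (vertical axis, 0 marks equal CPM) over all nuclei, pooled rods and cones, amacrine cells and RGCs, with 1 library per genotype; bars are 95% counting intervals. In rods and cones Gngt1 sits at 0.00 and Sag at -0.33, and the other members lie between -1.55 and -1.19.

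The transducin subunits did not move together. Gnat1, the GTP-binding subunit, stood over all nuclei at 955 CPM in Cre- against 328 in Tet tcKO, and its log2 ratio was -1.54 (-1.59 to -1.50). Within rods and cones it stood at 1235 CPM (1210 to 1261) and 542 CPM (525 to 559), a log2 ratio of -1.19 (-1.24 to -1.14), so it was 2.28-fold lower in Tet tcKO. Gnb1, a beta subunit that rods use and that many neurons also express, stood at 917 CPM (895 to 938) and 392 CPM (378 to 407) there, a log2 ratio of -1.23 (-1.29 to -1.16). The intervals of these 2 ratios overlap. Gngt1, whose product carries the farnesyl anchor of rod transducin, was at 716 CPM and 541 CPM over all nuclei, a log2 ratio of -0.40 (-0.45 to -0.36). Within rods and cones its level was 966 CPM (944 to 988) and 967 CPM (945 to 990), a log2 ratio of 0.00 (-0.05 to 0.05). Counted against Gnat1 in the same nuclei, Gngt1 had 0.782 UMIs per Gnat1 UMI in Cre- nuclei against 1.78 in Tet tcKO nuclei, a log2 difference of 1.19 (1.12 to 1.26). This ratio within a library does not depend on the scaling between libraries. The sign of the Gngt1 ratio in rods and cones did: it was -0.19 under trimmed mean of M-values (TMM) scaling, -0.17 under median-of-ratios scaling and 0.07 without cluster 45, a set of 22 Cre- and 2 Tet tcKO nuclei.

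The 3 phosphodiesterase subunits were all lower. Pde6a, a catalytic subunit, stood in rods and cones at 842 CPM (821 to 863) for Cre- and 287 CPM (274 to 299) for Tet tcKO. Its log2 ratio of -1.55 (-1.63 to -1.48) was the lowest of the 7. Pde6b, its catalytic partner, stood at 1643 CPM (1614 to 1672) and 672 CPM (654 to 691), a log2 ratio of -1.29 (-1.34 to -1.24). The catalytic subunits work as a heterodimer, and the UMI ratio of Pde6a to Pde6b was 0.512 for Cre- and 0.426 for Tet tcKO, which is a log2 difference of -0.27 (-0.35 to -0.18). Pde6g, the inhibitory subunit, stood at 490 CPM (474 to 506) and 204 CPM (194 to 215), a log2 ratio of -1.26 (-1.35 to -1.18). Its ratio to Pde6b was 0.298 and 0.304, and the log2 difference of 0.03 (-0.07 to 0.12) lay within counting error.

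Sag, which quenches activated rod opsin, was lower by a smaller step. Over all nuclei it stood at 2026 CPM against 1425 CPM, a log2 ratio of -0.51 (-0.53 to -0.48). Within rods and cones it stood at 2552 CPM (2516 to 2589) and 2034 CPM (2002 to 2067), a log2 ratio of -0.33 (-0.36 to -0.30). Its size depended on the processing, with -0.52 under TMM scaling and -0.50 under median-of-ratios scaling. It was -0.67 when each gene was counted once per nucleus and divided by all UMIs. That last value also depends on depth per nucleus. As a share of nuclei without thinning, Sag was found in 92.0% of Cre- and 95.9% of Tet tcKO rods and cones. Per Gnat1 UMI there were 2.07 Sag UMIs in Cre- nuclei and 3.75 in Tet tcKO nuclei, a log2 difference of 0.86 (0.80 to 0.92).

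The difference over all nuclei was also split into a part set by the share of each class and a part set by levels within classes. Class shares here are shares of UMIs, which for rods and cones were 65.8% in Cre- and 44.7% in Tet tcKO. They combine numbers of nuclei with UMIs per nucleus. Rods and cones were taken as 1 class, so a different mix of rods and cones falls in the part set by levels. The part set by class shares was between 15.4% (Pde6a) and 19.98% (Gnat1) for Gnat1, Gnb1, Pde6a, Pde6b and Pde6g. For Sag it was 45.1%, and for Gngt1 90.4%. The split takes bipolar-annotated nuclei as a class. Without their 4 failing clusters, the part was 34.9% for Sag, 79.1% for Gngt1 and between 9.92% (Gnb1) and 14.3% (Pde6b) for the others. Held at the Cre- class shares, the Gngt1 log2 ratio over all nuclei was -0.02, and the median of the members was -1.23.

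Sequencing depth differed between the libraries, so rods and cones were also compared in bins of UMIs per nucleus. Between 500 and 1000 UMIs, 2475 Cre- and 103 Tet tcKO nuclei gave log2 ratios from -1.45 for Pde6a to -0.15 for Sag. Between 1000 and 2000 UMIs, 2205 and 1836 nuclei gave ratios from -1.58 for Pde6a to -0.15 for Gngt1. From 2000 to 10000 UMIs, 799 and 1292 nuclei gave ratios from -1.73 for Pde6a to 0.15 (0.08 to 0.22) for Gngt1. Gnat1, Gnb1, Pde6a, Pde6b, Pde6g and Sag kept their sign in each bin, though the Sag interval of -0.37 to 0.06 in the shallowest bin spans 0, and Gngt1 changed sign in the deepest.

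**Figure D2:**
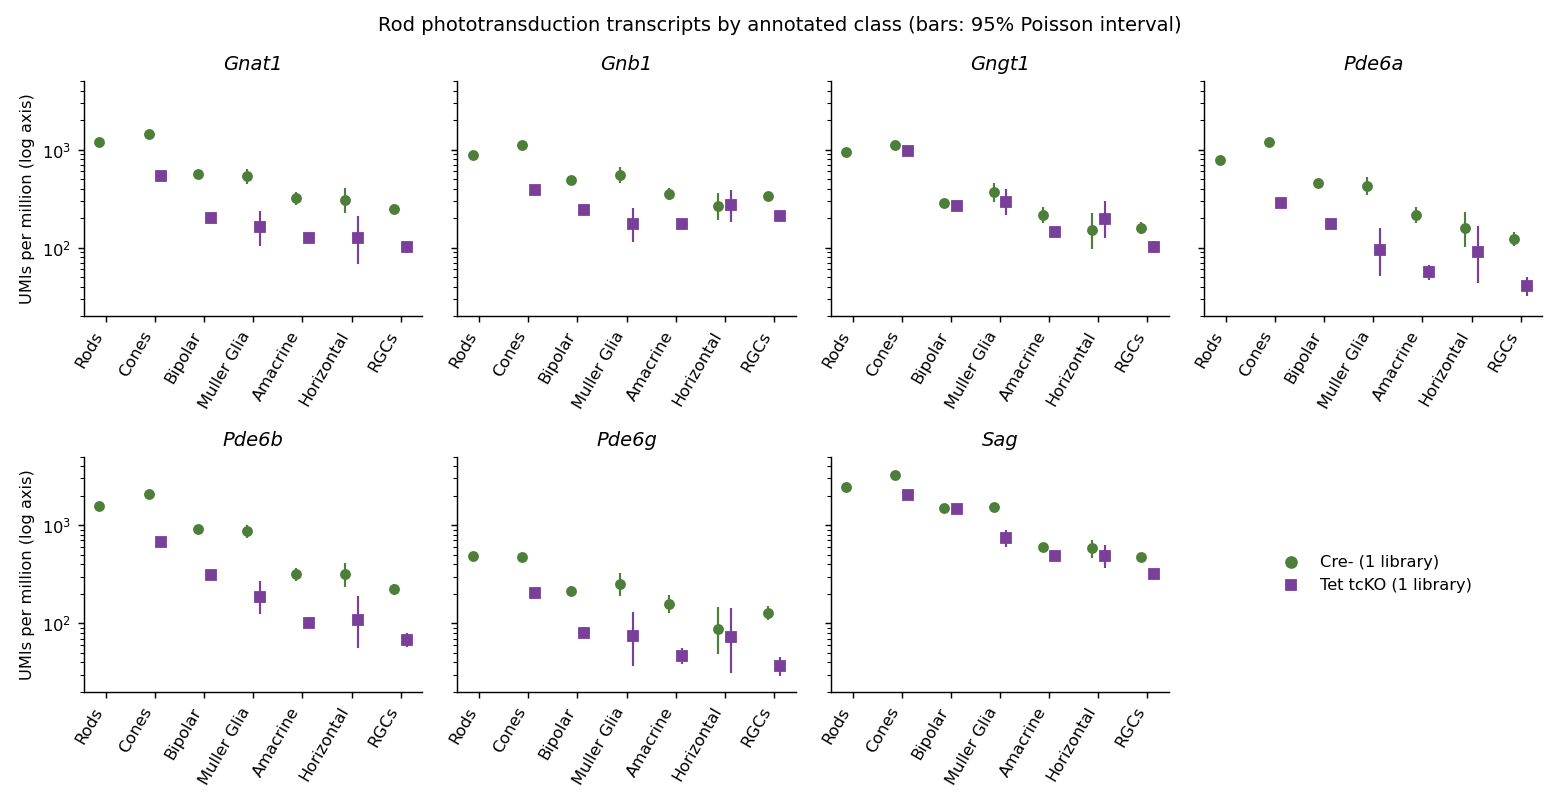
CPM (log axis) of each member in each annotated class of the Cre- and Tet tcKO libraries; points are 1 library each and bars are 95% Poisson intervals, and the 6 Tet tcKO nuclei annotated as rods are left out. Photoreceptor classes are highest in both libraries, and the Gngt1 levels of Cre- rods and Tet tcKO cones, 941 and 960 CPM, lie side by side.

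Across annotated classes the members followed a common order in the Cre- library. Nuclei annotated as cones were as high as rods or higher, with Gnat1 at 1427 CPM (1355 to 1502) against 1205 CPM (1179 to 1232), Pde6a at 1197 CPM (1132 to 1266) against 786 CPM (765 to 808) and Sag at 3262 CPM (3152 to 3374) against 2441 CPM (2403 to 2479). Pde6g, at 476 CPM (435 to 520) and 492 CPM (475 to 509), did not differ between them beyond the intervals. Bipolar cells and Müller glia came next, and their Gnat1 levels of 558 CPM (524 to 594) and 536 CPM (444 to 641) could not be ordered. Amacrine cells at 319 CPM (274 to 369), horizontal cells at 303 CPM (224 to 402) and RGCs at 250 CPM (223 to 280) were lowest, with overlapping intervals.

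In the Tet tcKO library, cones were highest for each of the 7 members among classes with 10 or more nuclei. Gnat1 stood at 539 CPM (522 to 556) in cones, 198 CPM (186 to 212) in bipolar-annotated nuclei, 161 CPM (103 to 239) in Müller glia, 126 CPM (68.9 to 212) in horizontal cells, 124 CPM (110 to 139) in amacrine cells and 101 CPM (87.8 to 115) in RGCs. The intervals of neighbours below cones overlapped. Among bipolar-annotated nuclei, 1220 of 1649 in Tet tcKO, but 16 of 674 in Cre-, lay in 4 clusters (22, 35, 39 and 41) that had a photoreceptor marker and no bipolar marker among their 10 leading genes. Gnat1 stood at 213 CPM in these Tet tcKO nuclei and at 152 CPM in the other bipolar-annotated ones, and Sag at 1666 and 891 CPM, so the class was not compared between genotypes. The 6 nuclei annotated as rods held 60 Gngt1 UMIs, or 8065 CPM (6154 to 10381), and 25 Gnat1 UMIs, or 3360 CPM (2175 to 4960). Of the Gngt1 UMIs, 37 came from 2 nuclei of cluster 45 and 22 from 2 of cluster 21, and these 4 nuclei held all the Gnat1 UMIs.

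The members are not known as transcripts of amacrine cells or RGCs apart from Gnb1, and their level there serves as background. In Cre-, the amacrine level was between 19.2% (Pde6b) and 38.5% (Gnb1) of the level in rods and cones, and the RGC level between 13.5% (Pde6b) and 36.8% (Gnb1). In Tet tcKO the amacrine level was between 14.8% (Gngt1) and 44.4% (Gnb1), and the RGC level between 10.2% (Pde6b) and 53.7% (Gnb1). In horizontal cells it was between 15.7% (Gngt1) and 28.9% (Gnb1) in Cre-, and between 16.1% (Pde6b) and 68.9% (Gnb1, on 30 UMIs) in Tet tcKO. Bipolar cells and Müller glia stood mostly higher. Cre- bipolar cells held between 29.4% (Gngt1) and 58.6% (Sag) of the photoreceptor level and Cre- Müller glia between 38.2% (Gngt1) and 60.4% (Gnb1), while Tet tcKO Müller glia held between 27.9% (Pde6b) and 44.4% (Gnb1). Bipolar-annotated Tet tcKO nuclei held between 27.8% (Gngt1) and 72.9% (Sag). Background levels also differed between the libraries. Over amacrine cells and RGCs together the median log2 ratio was -1.26, against 0.03 for all 10529 genes compared, and 4 of 7 members were lower by 2-fold or more, beside 2.51% of genes, with 0 higher by that much, beside 3.03%. The 32 photoreceptor markers summed to 3659 CPM in Cre- amacrine cells and 2315 CPM in Cre- RGCs, with 1 and 0 of them at 0, and to 3209 CPM and 2127 CPM in Tet tcKO, with none at 0. The part of free RNA in these levels was not tested. With each library's own RGC level subtracted, Gnb1 in rods and cones moved from -1.23 to -1.67 and Gngt1 to 0.10. For Gnb1 the RGC level is not background alone, so its subtracted value is not a background-corrected ratio.

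The makeup of the members' own UMIs followed the library as well as the class. Gngt1 was 11.2% of the members' UMIs in Cre- rods and cones and 9.53% in Cre- amacrine cells and RGCs, against 19.0% and 12.2% in Tet tcKO. Sag was 29.5% and 27.9% in Cre- against 39.9% and 40.1% in Tet tcKO. Gnb1 was 18.6% in Cre- and 19.0% in Tet tcKO amacrine cells and RGCs, and 10.6% and 7.69% in rods and cones. For Sag the makeup of the background was close to that of its own library's photoreceptors, while for Gnb1 it was above it in both libraries.

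Each rod gene was then set beside its cone counterpart, as the share of the pair's UMIs that came from the rod gene. The share describes counts of the pair and is not by itself a measure of rod identity. Within pooled rods and cones this share was lower in Tet tcKO for all 7 pairs, except that Pde6g over Pde6h turned to a difference of 0.0568 percentage points when the RGC level was subtracted. Gnat1 over Gnat2 was 93.6% (93.1 to 94.1) for Cre- and 51.3% (50.2 to 52.4) for Tet tcKO, so the rod and cone alpha subunits had near equal counts in Tet tcKO. Gnb1 over Gnb3 went from 75.1% (74.2 to 76.0) to 30.7% (29.7 to 31.6). Gngt1 over Gngt2 went from 95.3% (94.9 to 95.8) to 75.2% (74.3 to 76.0). In CPM the cone gene went from 47.1 to 319, while Gngt1 stood at 966 and 967. That Gngt1 was level depends on the scaling, since its log2 ratio was -0.19 under TMM scaling.

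Among phosphodiesterase pairs, Pde6a over Pde6c went from 90.9% (90.2 to 91.6) to 56.9% (55.3 to 58.5), and Pde6b over the same cone gene from 95.1% (94.7 to 95.5) to 75.6% (74.5 to 76.6). Pde6g over Pde6h differed little, at 92.5% (91.6 to 93.3) and 90.9% (89.4 to 92.2). The cone inhibitory subunit Pde6h was lower in Tet tcKO, at 39.7 CPM and 20.5 CPM, a log2 ratio of -0.95. The other 5 of the 6 cone counterparts were higher in Tet tcKO. Sag over Arr3 went from 77.2% (76.6 to 77.7) to 50.4% (49.8 to 51.0), with Arr3 going from 755 to 2002 CPM. Counted once per nucleus, the difference in the Sag share was -11.2 percentage points instead of -26.8, and that in the Gnb1 share -25.7 instead of -44.4.

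**Figure D3:**
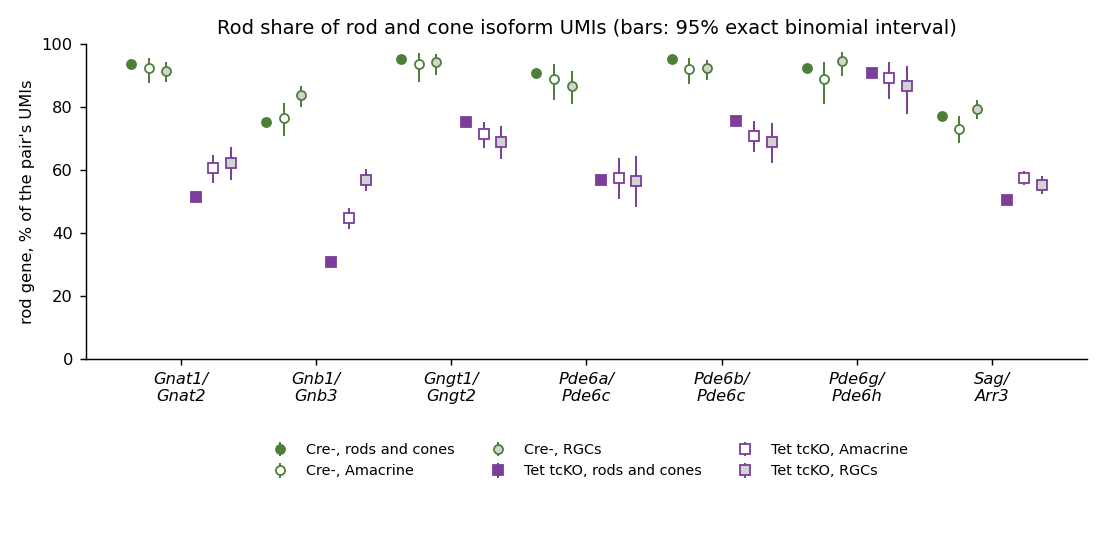
Share of the rod gene in the UMIs of each rod and cone gene pair (vertical axis, percent) in rods and cones, amacrine cells and RGCs of each library; bars are 95% exact binomial intervals for counting error. For Gnat1 over Gnat2, Tet tcKO amacrine cells at 60.5% and RGCs at 62.3% sit closer to Tet tcKO than to Cre- photoreceptors, and Pde6g over Pde6h stays between 86.7% and 94.6% in every group shown.

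Amacrine cells and RGCs serve as background for the genes of these pairs apart from Gnb1, which many neurons also express. When these classes were pooled, each of the 7 shares lay closer to that of their own library's photoreceptors than to that of the other library's. Taken singly, Tet tcKO RGCs had a Gnb1 share of 57.0%, closer to Cre- photoreceptors, and Cre- amacrine cells a Pde6g share of 88.9%, closer to Tet tcKO ones. Gnat1 over Gnat2 was 91.7% (89.0 to 93.9) for Cre- and 61.3% (57.8 to 64.6) for Tet tcKO nuclei of these types. Pde6a over Pde6c was 87.7% (83.5 to 91.1) and 57.1% (51.9 to 62.1) there. Gnb1 over Gnb3 stood apart in Tet tcKO, at 50.4% (47.9 to 52.8) against 30.7% in photoreceptors. The Cre- nuclei annotated as cones had a Gnat1 share of 94.2% (92.9 to 95.3) and a Sag share of 78.7% (77.5 to 80.0), close to the 93.5% (92.9 to 94.0) and 76.8% (76.3 to 77.4) of Cre- rods.

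Photoreceptor clusters of 50 or more nuclei, 15 in Cre- and 8 in Tet tcKO, gave the spread within each library. For 5 members, Gnat1, Gnb1, Pde6a, Pde6b and Pde6g, every Tet tcKO cluster was below every Cre- cluster, beside 1.49% of all genes compared. None had every Tet tcKO cluster above, beside 3.08%, while the cone genes Gnat2, Gngt2 and Pde6c did. Clusters of a library share their source and were built from these transcripts among others, so they are not replicates. Gnat1 ranged from 1045 to 1428 CPM over Cre- clusters and from 291 to 669 CPM over Tet tcKO clusters. Pde6a ranged from 472 to 1198 CPM and from 209 to 314 CPM. Gngt1 overlapped between libraries, with Cre- clusters from 729 to 1128 CPM and Tet tcKO clusters from 691 to 1261 CPM, and so did Sag, from 1746 to 3263 CPM and from 1641 to 2256 CPM.

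**Figure D4:**
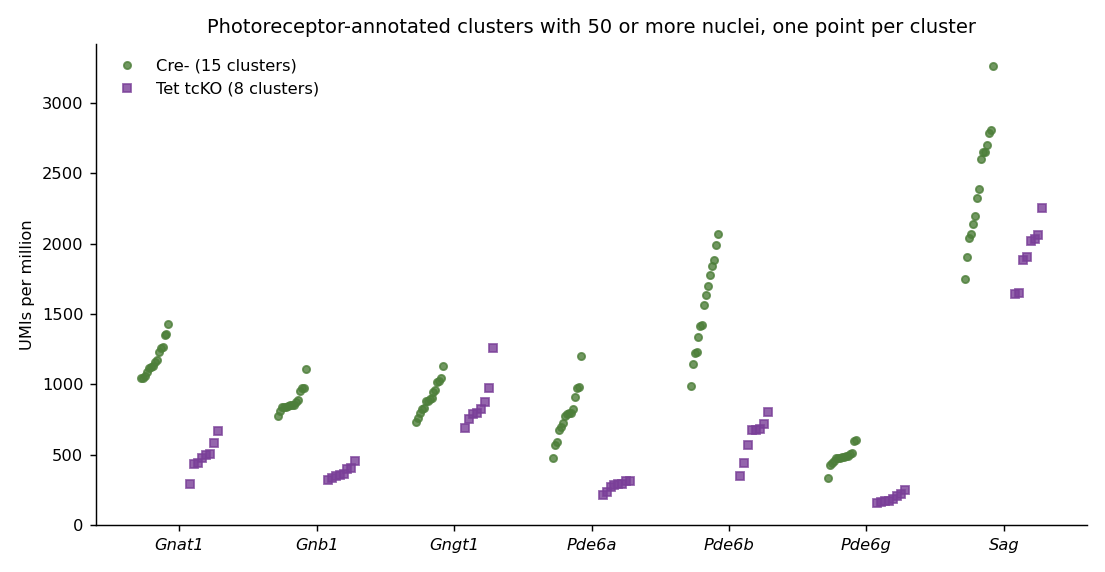
CPM of each member in photoreceptor-annotated clusters of 50 or more nuclei, sorted within each library, with 1 point per cluster (15 in Cre-, 8 in Tet tcKO). The points of Gnat1, Gnb1, Pde6a, Pde6b and Pde6g do not overlap between libraries, while those of Gngt1 and Sag do.

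The clusters at the ends of these ranges recurred. In Cre-, cluster 11, the cone-annotated cluster with a median of 3744.5 UMIs per nucleus, was highest for Gnat1, Gnb1, Gngt1, Pde6a, Pde6b and Sag, and cluster 44, with a median of 912.5, was lowest for Gnat1, Pde6a, Pde6b and Sag. Cluster 44 nevertheless held 1023 CPM of Gngt1 and 501 CPM of Pde6g, above the cluster medians of 893 and 481 CPM. In Tet tcKO, cluster 48, with a median of 4354 UMIs, was highest for Gnat1, Gnb1, Gngt1, Pde6b, Pde6g and Sag, and cluster 52, with a median of 1648, was lowest for Gnat1, Gngt1, Pde6b, Pde6g and Sag. These positions did not follow depth throughout: cluster 52 was deeper than clusters 46, 53, 54 and 55, and Cre- clusters 32 and 40, with medians of 811 and 702.5 UMIs, were shallower than cluster 44.

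Rod shares of the pairs also separated the clusters. The Gnat1 share ran from 91.9% to 96.6% over Cre- clusters and from 48.0% to 59.8% over Tet tcKO clusters. The Sag share ran from 68.3% to 80.2% and from 43.4% to 64.3%. Only the ranges of Pde6g over Pde6h overlapped among the 7 pairs, with Cre- clusters from 87.0% to 95.1% and Tet tcKO clusters from 86.1% to 97.4%. The pairs are not independent, since Pde6a and Pde6b share Pde6c, and no share over other gene pairs was computed. Here too the clusters are not replicates. Cluster 52 held the highest rod share of Tet tcKO clusters for Gnat1, Gnb1, Gngt1 and Sag and the lowest for Pde6b, at 66.4%, and Pde6g, at 86.1%. It was also the lowest for the cone genes Gnat2, Gnb3, Gngt2 and Arr3 in CPM.

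To compare detection at equal depth, each nucleus was thinned to 500 UMIs. Of Cre- rods and cones, 46.8% (45.5 to 48.1) then had a Gnat1 UMI, against 23.7% (22.3 to 25.2) of Tet tcKO ones, and 15.6% and 6.75% of amacrine cells and RGCs in the same libraries did. Gngt1 was found in 37.7% (36.4 to 39.0) and 36.6% (35.0 to 38.3) of rods and cones, against 9.07% and 7.21% in the background. Sag was found in 71.3% (70.1 to 72.5) and 64.3% (62.6 to 65.9), against 26.2% and 19.0%. Shares for the other members ran from 22.7% (Pde6g) to 54.7% (Pde6b) of Cre- and from 9.69% to 27.6% of Tet tcKO photoreceptors. Each member was found more often in rods and cones than in the background of its own library.

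Counted together, a thinned Cre- photoreceptor held 3.04 of the 7 members on average and a Tet tcKO one 1.93. The share with 4 or more members was 35.4% (34.1 to 36.7) for Cre- and 7.95% (7.04 to 8.94) for Tet tcKO, and the share with none was 1.75% and 8.11%. In amacrine cells and RGCs, 1.86% and 0.172% had 4 or more. Without thinning, when median depths were 1046 and 1714 UMIs in rods and cones and 1306 and 1953 in amacrine cells and RGCs, 83.3% and 74.5% of photoreceptors had 4 or more, against 21.5% and 10.1% of the background.

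**Figure D5:**
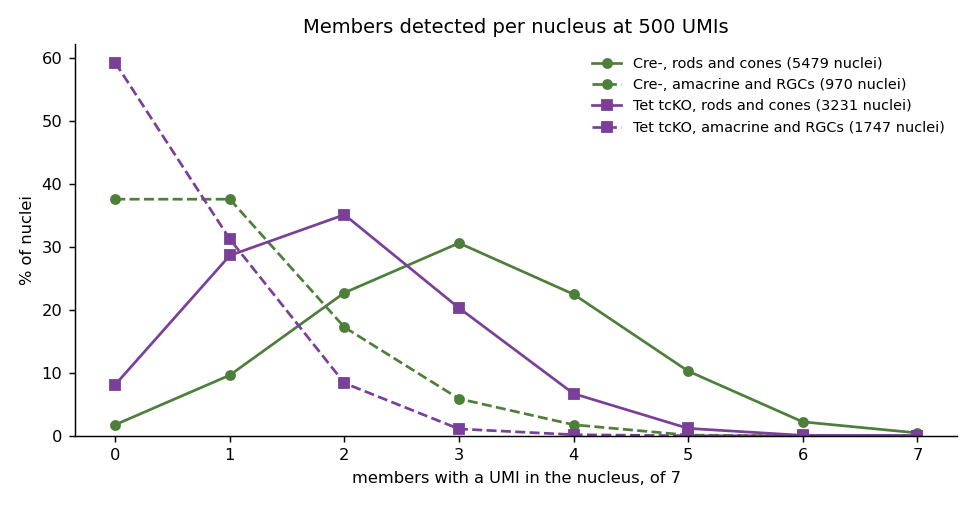
Percent of nuclei (vertical axis) by the number of the 7 members with at least 1 UMI (horizontal axis), after thinning each nucleus to 500 UMIs; solid lines are rods and cones, dashed lines amacrine cells and RGCs. The most common number is 3 in Cre- and 2 in Tet tcKO photoreceptors.

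Other genes of the pathway gave a frame for the members. Of 13 further rod or shared genes, 8 were lower by 2-fold or more in rods and cones, beside 2.58% of all genes compared, and 0 were higher by that much, beside 6.67%, with a median log2 ratio of -1.02. Cnga1, the alpha subunit of the rod channel, went from 940 to 266 CPM (log2 -1.82), and Slc24a1, the rod sodium, calcium and potassium exchanger, from 484 to 141 CPM (-1.78). Rgs9, the GTPase-activating protein that shuts off transducin, stood at 685 and 686 CPM (0.00), its membrane anchor Rgs9bp at 176 and 176 CPM (0.00), and the guanylate cyclase Gucy2e at 143 and 151 CPM (0.08). These 3 are used by rods and cones alike. Of other genes used by both cell types, Gnb5, the partner of Rgs9, went from 638 to 358 CPM (-0.83). Rcvrn, the calcium sensor recoverin, had a ratio of -1.21 and Guca1a, an activator of guanylate cyclase, -1.02. Whether use in both cell types bears on these ratios was not tested. Pdc, which encodes phosducin, a binder of transducin beta and gamma subunits, had a log2 ratio of -0.34 (-0.41 to -0.28).

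Of 4 genes for assembly and transport of the cascade, 3 had ratios above 0 in rods and cones. The median of all 11377 genes compared there was also above 0, at 0.23. Aipl1, a chaperone of phosphodiesterase 6, had a log2 ratio of 0.60, Pde6d, a carrier of prenylated proteins, 0.55, and Ric8a, a chaperone of G protein alpha subunits, 0.66. Unc119, a carrier of acylated transducin alpha, had a ratio of -0.38. None of the 4 differed by 2-fold, beside 2.58% of all genes compared that were lower and 6.67% that were higher by that much. Among 7 other G protein subunits of neurons, Gnb2, another beta subunit, went from 90.0 to 270 CPM in rods and cones (log2 1.58), while in amacrine cells and RGCs it stood at 116 and 115 CPM (-0.01). The other 6 differed by less than 2-fold, with Gnao1 at -0.10 and Gnas at 0.50. 5 of the 6 cone counterparts were higher by 2-fold or more, beside 6.67% of all genes compared.

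The profile of the members was last compared with other genes over 47 populations, each a cluster of 1 library with 50 or more nuclei, as Pearson's r of log2(CPM + 10) with the members' mean profile. Pde6b (0.98), Gnat1 (0.98) and Pde6a (0.98) were closest to that mean and Gngt1 (0.91) and Sag (0.91) farthest. Sag and Gngt1 correlated with each other at 0.91, against 0.75 for Sag and Gnb1 and 0.77 for Gngt1 and Gnb1. Of 4842 other genes, the 10 most alike were Rom1 (0.98), Gnb5, Guca1a, Prph2, Hmgn1, Nrl, Rdh12, Pdzph1, Guca1b and Nr2e3 (0.97). Rom1 and Prph2 encode outer segment disc proteins, Gnb5 the partner of Rgs9, Guca1a and Guca1b activators of guanylate cyclase, and Nrl and Nr2e3 rod transcription factors. The populations share libraries and depth, so these values are descriptions only.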

How the data were processed

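Whole-retina nuclei were profiled in 1 Cre- and 1 Tet tcKO library. Reads were processed with pipseeker 3.3.0 on GRCm39, per the labels. According to the study's methods, ambient RNA was removed with CellBender 0.3.0 (cell probability 0.99), and a nucleus was kept with more than 500 but fewer than 10000 transcripts, of which less than 20% were mitochondrial. Treatment of doublets: not given in the sources used here; none were removed for this work. The deposited matrices hold UMI counts per gene and nucleus after these steps. The deposited cell tables add counts of UMIs and genes, a mitochondrial percent, and a size factor, a ratio of totals that was not used. The deposited gene table gives a mean normalized signal per genotype and the number of nuclei with each gene, which were not used. Clusters and cell types are the authors' annotation.

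UMIs were summed over nuclei and divided by all UMIs of that population, giving CPM. With 1 library per genotype, no test was run. The study's model of single nuclei as replicates was not repeated. Intervals are exact at 95%: Poisson for levels, conditional for ratios of counts and Clopper-Pearson for shares; those of a ratio between genes use a normal approximation on the log scale. Where a count was 0, a floor of 3 counts was set in ratios. Counts of 2-fold differences took genes that reached 10 CPM in either library. The members and gene lists were chosen with earlier results of these data known. Named genes are the members, these lists, and the 10 genes most like the members among those at 50 CPM or more; single clusters were named after their values were seen. GENCODE M39 gave coordinates by gene ID and RefSeq the sequences. Alternatives covered scaling, counting, depth, background and clusters. For ratios, counting once per nucleus divided the nuclei with a UMI of the gene by all UMIs of the population. Ratios were tested on simulated data. Python 3.11.15, numpy 2.4.6, scipy 1.17.1, pandas 2.3.3 and, for TMM factors, edgeR 4.0.16 were used.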

Additional observations from a re-analysis of the deposited data

How the results depend on the processing

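No paired analysis was possible because each genotype had 1 library, and no replicate could be left out. The median log2 ratio of the members stayed below 0 under every alternative run. Over all nuclei it was -1.65 under TMM and -1.65 under median-of-ratios scaling, -1.60 without mitochondrial genes in the total, -1.49 in nuclei with 1000 or more UMIs, -1.42 without the 4 failing bipolar clusters, -1.23 at Cre- class shares and -1.20 with each gene counted once per nucleus. In rods and cones it was -1.42, -1.39 and -1.29 under the same scalings and total, -1.16 with the RGC level subtracted and -0.95 counted once per nucleus. The RGC-subtracted median includes Gnb1, for which that level is not background alone. TMM lowered every ratio by 0.10 over all nuclei and by 0.19 in rods and cones. Leaving out cluster 45, cluster 11 or the failing bipolar clusters was chosen after seeing the data.

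Of the members' ratios in rods and cones, the Gngt1 value ran from -0.44 (counted once per nucleus) to 0.10 (RGC level subtracted) and was below 0 in 6 of 11 alternatives. The other 6 members were below 0 in all 11, with Sag from -0.67 to -0.26. The median change in rod share was -26.8 percentage points and -25.7 counted once per nucleus, where Sag over Arr3 moved from -26.8 to -11.2, Gnb1 over Gnb3 from -44.4 to -25.7 and Gngt1 over Gngt2 from -20.2 to -29.5. The Pde6g over Pde6h change was 0.0568 points after RGC subtraction, against -1.63. The difference in nuclei with 4 or more members was -27.4 points, and -8.84 without thinning. Genes differing by 2-fold over all nuclei numbered 632, 262 at a minimum of 50 CPM and 1868 at 1 CPM. Beyond these constructions the cause was not tested. With 1 library per genotype, depth limits only the counting error, and spread between animals is unknown.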

Other observations

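Cluster 45 was singled out after its values were seen. It holds 22 Cre- nuclei annotated as rods, with a median of 745 UMIs against 1026 in the other Cre- rods, and the members made up 5.18% of its UMIs against 0.820%. Gngt1 was 23.0-fold (20.7 to 25.6) higher there, Pde6g 14.8-fold (12.3 to 17.6), Gnat1 7.82-fold (6.68 to 9.09) and Gnb1 6.98-fold (5.75 to 8.40), while Sag was 2.24-fold (1.82 to 2.72), Pde6a 1.84-fold (1.21 to 2.68) and Pde6b 1.42-fold (1.03 to 1.93) higher. Of the cone genes, Pde6h was 25.8-fold (15.0 to 41.7) higher on 18 UMIs and Gngt2 6.81-fold (2.48 to 15.0) higher on 6 UMIs, while Arr3, on 5 UMIs, was at 0.362 (0.118 to 0.846) of the level in the other rods, and Gnat2, Gnb3 and Pde6c had 0, 3 and 2 UMIs. Mitochondrially encoded genes took 7.37% of its UMIs against 7.46% in the other rods, and the authors' mitochondrial percent had a median of 14.1 against 11.1. The clusters were built from these transcripts among others, so the ratios describe the cluster and test nothing.

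Cluster 22, annotated as bipolar cells and held by 214 Tet tcKO nuclei, had 3092 CPM of Sag, above the 2256 CPM of the highest Tet tcKO photoreceptor cluster, and 3553 CPM of Arr3. Its Gnat1 level was 236 CPM, below the 291 CPM of the lowest photoreceptor cluster. A photoreceptor marker, and none of bipolar cells, was among its 10 leading genes, as in bipolar-annotated clusters 35, 39 and 41.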
